A study of Mus musculus with 4 samples.

Results

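The 9 genes described here belong to the bone morphogenetic protein (BMP) pathway of mouse pluripotent stem cells: the ligand Bmp4, the receptor Bmpr1a, the receptor-activated Smads Smad1 and Smad5, the inhibitory Smads Smad6 and Smad7, and the Id target genes Id1, Id2 and Id3. They were chosen by name, and every probe set annotated to a single gene of the 9 was taken, which gave 21 of the 45101 probe sets on the array. For tests each gene was taken at its brightest probe set on average, among 18193 genes in all. The median level over the array was 6.83. All 9 members were at or above it, and such genes are called bright below.

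Total RNA was profiled on 4 Affymetrix arrays, 1 per cell line. NT-1, NT-2 and NT-3 (lines 1, 2 and 3 below) are embryonic stem cell lines from blastocysts cloned by nuclear transfer (NT-ESC), labelled as subclones 1 to 3 from Adeno-1. Adeno-1 is the donor, 1 clone of induced pluripotent stem cells (iPSC) made with adenoviral vectors from tail-tip fibroblasts, so the lines descend from it. All were grown with 15% fetal bovine serum and LIF on irradiated mouse embryonic fibroblast feeders, and were plated for 45 min before harvest to take the feeders away. The labels do not say whether the lines came from separate embryos, so p-values here measure the spread between these arrays, which may be smaller than between separate derivations.

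BMP ligands bind a pair of type I and type II receptor kinases, and the type I receptor phosphorylates Smad1 and Smad5, which enter the nucleus with Smad4 and switch on target genes. Among these targets are the Id genes, whose proteins hold basic helix-loop-helix factors away from DNA, and the inhibitory Smads, which feed back on the receptors. In mouse embryonic stem cells grown with LIF, BMP4 or serum sustains Id expression, which helps to block neural differentiation and to keep self-renewal.

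The promoter letters of 3 members are shown because these genes stand for the patterns described below: Smad6 was higher in every NT-ESC line than in the clone, Id2 hardly differed, and Id3 was lowest in line 3. The sequences are from RefSeq, build GRCm38.p6, whose promoter table covers 250 bases before to 50 after a start and held 7 of the 9 members, all but Id1 and Smad7. Each is printed 5′ to 3′ on the strand of the gene, up to its start or, for Smad6, to the end of a motif that spans the start. Capitals mark a match to GTCTAGAC, the palindromic Smad box, or to GGCGCC, a GC-rich element bound by BMP Smads; both read the same on either strand and they cannot overlap. The Smad6 stretch is chr9:64022056-64022309, minus strand, the Id2 stretch chr12:25096093-25096342, minus strand, and the Id3 stretch chr4:136143572-136143821, plus strand.
Smad6: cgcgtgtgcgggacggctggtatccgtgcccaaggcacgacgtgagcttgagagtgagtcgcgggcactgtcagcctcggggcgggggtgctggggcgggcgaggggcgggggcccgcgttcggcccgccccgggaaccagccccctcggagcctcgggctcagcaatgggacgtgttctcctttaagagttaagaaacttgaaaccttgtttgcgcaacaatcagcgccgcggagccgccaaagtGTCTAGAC
Id2: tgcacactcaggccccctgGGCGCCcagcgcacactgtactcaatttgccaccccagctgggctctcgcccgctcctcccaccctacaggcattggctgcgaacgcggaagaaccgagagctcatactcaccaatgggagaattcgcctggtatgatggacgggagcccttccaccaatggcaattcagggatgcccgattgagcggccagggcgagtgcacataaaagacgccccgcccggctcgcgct
Id3: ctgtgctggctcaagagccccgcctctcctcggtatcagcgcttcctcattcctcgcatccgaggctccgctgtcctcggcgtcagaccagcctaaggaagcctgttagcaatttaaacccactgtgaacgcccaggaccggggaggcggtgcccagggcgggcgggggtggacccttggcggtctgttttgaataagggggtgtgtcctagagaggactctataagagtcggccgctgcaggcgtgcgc
GTCTAGAC occurred in the window of 1 member, Smad6, where it begins 4 bases before the start, and in 0.213% of 32817 mouse promoter windows of the same length. GGCGCC occurred for 3 members, Id2, Bmpr1a and Smad5, and in 11.9% of all windows (3892). The 7 members had 9 windows, with more than 1 for Smad5, so a count of members and a share of windows are not like measures. A match is a description of the letters, not evidence of a bound site, and the Id3 window simply does not hold either string.

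All values below are levels on a log2 intensity scale. The deposited numbers were on another log2 scale, and each was turned into a level with the mean of the array set to an assumed 7; differences of levels would be 14.3% smaller with a mean of 6 and 12.3% greater with 7.86, the mean that would put the top signal at the 16-bit ceiling of the scanner. Lines and clone were compared by limma over all genes, with Benjamini-Hochberg (BH) adjustment. Since there was 1 clone array, the spread came from the 3 lines alone, and an exact permutation of 4 arrays cannot give a p below 0.25. Levels of different genes come from different probes and are not compared with each other.

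The arrays correlated across all genes with Pearson's r of 0.9951 to 0.9979 (18193 genes, which are not independent replicates), and line 3 was in each of the 3 lowest pairs. The 10 pluripotency markers were bright on every array, with Pou5f1 (Oct4) between 12.20 and 12.25, so the labelled state was borne out by its markers. Of 16 measured fibroblast and feeder markers 13 were bright, and their summed level was 127.7, 130.2 and 129.2 in lines 1, 2 and 3 and 128.5 in the clone. In the primitive endoderm list 1 of 6 markers was bright (Dab2), with sums of 39.3 to 40.1 in the lines and 39.5 in the clone. In the mesoderm list 3 of 6 were bright, with sums of 43.6 to 44.4 in the lines and 43.6 in the clone. In the trophectoderm list 4 of 6 were bright, with sums of 48.0, 47.2 and 44.9 in lines 1, 2 and 3 and 45.3 in the clone; Cdx2 and Elf5 were under the median level on all 4 arrays. In bulk RNA, fewer cells of a type and less RNA per cell cannot be told apart.

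Across the 9 members, 6 were higher in all 3 NT-ESC lines than in the iPSC clone: the ligand Bmp4, both inhibitory Smads, Id1, and, by small margins, Smad1 and Smad5. Id3 was lower in all 3 lines, and Id2 and Bmpr1a lay on both sides of or level with the clone. Among all bright genes, 29.9% were higher in every line and 21.4% lower. With line 3, which stands apart, left out, 7 of the 9 were higher in both other lines, where 43.2% of bright genes were. No member passed limma's test, and neither did any of the 18193 genes (0% called, smallest BH-adjusted p = 0.856); at an unadjusted p under 0.05, limma gave 3 members, Smad6, Smad7 and Bmp4, against 5.53% of all genes (1006). The median difference of the 9 was 0.25, beside 0.02 over bright genes. Because the members were chosen with results of these arrays known, these counts are a description and carry no test. In a sign of RNA quality the clone was the lowest array, by less than the lines spanned among themselves. The gap between the 3′ and 5′ control probe sets of Actb was 0.28, 0.42 and 0.29 in lines 1, 2 and 3 and 0.22 in the clone. That of Gapdh was -0.06, 0.03 and -0.04 in the lines and -0.07 in the clone (log2). The part of RNA quality in the members' differences was not tested.

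**Figure D1:**
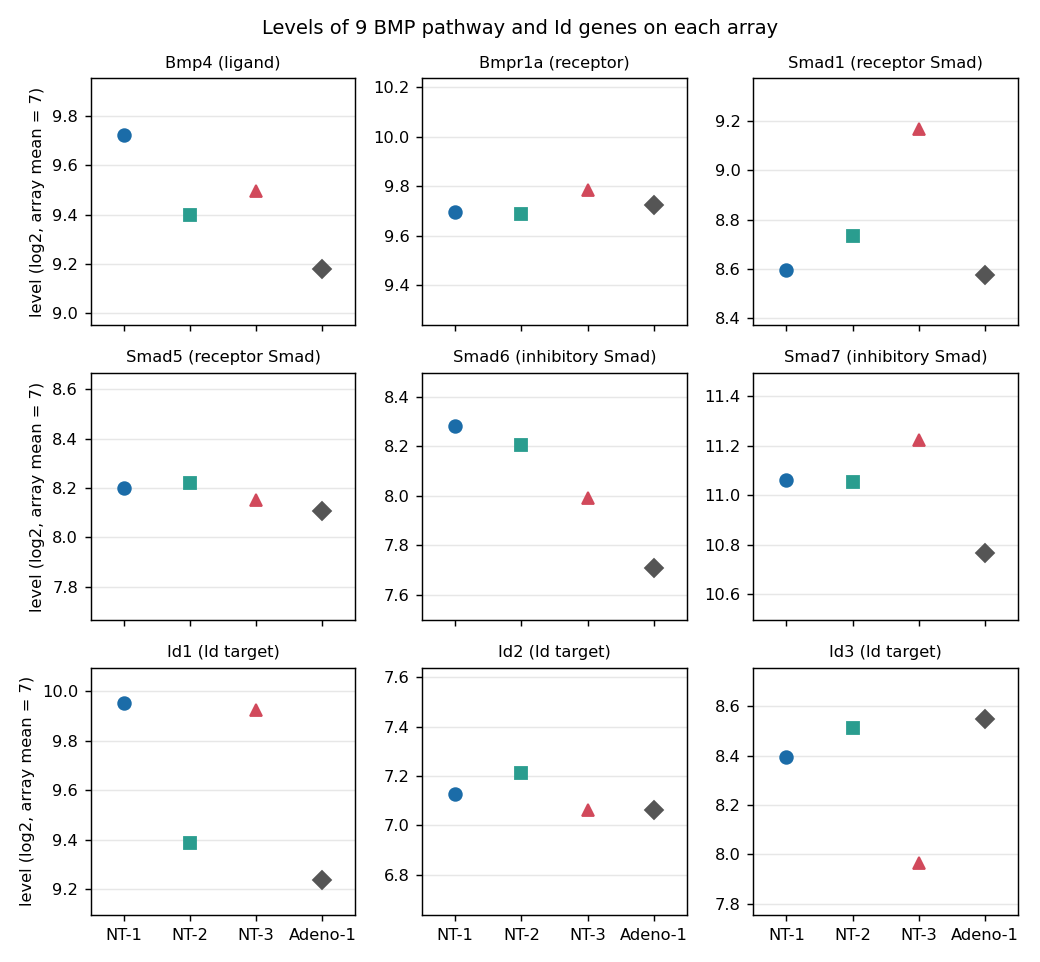
Level of each of the 9 genes on each array (log2 intensity scale with the array mean set to 7; every panel spans 1 log2 unit; 1 point per array). The clone, at the right, is lowest for Bmp4, Smad1, Smad5, Smad6, Smad7 and Id1 and highest for Id3.

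Bmp4, the ligand, stood at 9.72, 9.40 and 9.50 in lines 1, 2 and 3, against 9.18 in the clone. The lines averaged 9.54 ± 0.17 (SD, n = 3), a difference of 0.36 ± 0.14 (SE; limma, BH-adjusted p = 0.856). The clone was 0.22 below the nearest line, line 2, while the lines themselves spanned 0.32. The highest Bmp4 level was in line 1, where the summed feeder markers were lowest. Line 2, with the highest feeder sum, had the lowest Bmp4 among the lines. The clone did not keep this order, with a feeder sum of 128.5, between lines 1 and 3, and the lowest Bmp4 of all. The part of feeder RNA in the Bmp4 difference was not tested.

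Bmpr1a, the type I receptor for BMP2 and BMP4, was the most even member. Its brightest probe set stood at 9.70, 9.69 and 9.78 in lines 1 to 3 and at 9.72 in the clone. The lines averaged 9.72 ± 0.05 (SD, n = 3), and the 95% interval of the difference ran from -0.21 to 0.21 (limma). The gene had 6 probe sets, and they disagreed: all 3 lines were above the clone by 2 of them, below it by 1, and on both sides by 3. On the probe scale these disagreements were small, with differences of -0.13 to 0.19 (log2), and no direction can be given for Bmpr1a.

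Smad1, the best known carrier of the BMP signal, stood at 8.59, 8.73 and 9.17 in lines 1, 2 and 3, against 8.58 in the clone. Line 1 and the clone were 0.02 apart, and the difference of 0.25 ± 0.22 (SE; limma, BH-adjusted p = 0.897) was 0.09 without line 3. After quantile normalization Smad1 was no longer higher in all lines. Of its 3 probe sets, only 2 had all lines above the clone. Smad5, the close relative of Smad1 with the same role, did not share the line 3 pattern. It stood at 8.20, 8.22 and 8.15 in lines 1 to 3 and at 8.11 in the clone, a difference of 0.08 ± 0.08 (SE; limma, BH-adjusted p = 0.906) with a 95% interval of -0.11 to 0.28. Of its 3 probe sets, 2 had all lines above the clone and the third did not.

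Smad6 and Smad7, the inhibitory Smads, had the smallest unadjusted p-values of the 9 members between the lines and the clone. Smad6, which acts mainly on BMP receptors, stood at 8.28, 8.20 and 7.99 in lines 1, 2 and 3, against 7.71 in the clone. By the 1 probe set of this gene the groups did not overlap, and the nearest line, line 3, was 0.28 above the clone. The lines averaged 8.16 ± 0.15 (SD, n = 3), a difference of 0.45 ± 0.13 (SE; limma, unadjusted p = 0.0143, BH-adjusted p = 0.856). Among bright genes, 0.792% differed at least as much in either direction. The order of the lines for Smad6 was that of the summed trophectoderm markers given above, an order held by Krt8, Krt18 and Tfap2c but not by Cdx2, Elf5 or Ascl2. Line 3 was above the clone for Smad6 but not for that sum, and whether the markers bear on the Smad6 values was not tested.

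Smad7, which also restrains TGF-beta and activin receptors, stood at 11.06, 11.05 and 11.22 in lines 1 to 3, against 10.77 in the clone. Lines 1 and 2 were nearly level with each other, and the nearer to the clone, line 2, was 0.29 above it. The lines averaged 11.11 ± 0.10 (SD, n = 3), a difference of 0.35 ± 0.10 (SE; limma, unadjusted p = 0.0150, BH-adjusted p = 0.856). Its second probe set, of a kind that Affymetrix marks as possibly hybridizing to other transcripts, stood at 9.46, 9.28 and 9.31 in the lines and at 8.95 in the clone. Both probe sets therefore had every line above the clone, although they placed a different line highest. The 95% interval of the limma difference was 0.13 to 0.77 for Smad6 and 0.10 to 0.60 for Smad7, before adjustment for the number of genes.

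The 3 Id genes differed in direction. Id1, a classic direct target of BMP Smads, stood at 9.95, 9.38 and 9.93 in lines 1, 2 and 3, against 9.24 in the clone. Lines 1 and 3 were level with each other and lay 0.72 and 0.69 above the clone, which is 1.64-fold and 1.61-fold on this scale, while line 2 was only 0.15 above it. The lines averaged 9.76 ± 0.32 (SD, n = 3), and the difference of 0.52 ± 0.23 (SE) was the largest of the 9 members but also had the widest spread (limma, BH-adjusted p = 0.856; 95% interval -0.07 to 1.10). Only 0.358% of bright genes differed as much.

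Id2 stood at 7.13, 7.21 and 7.06 in lines 1, 2 and 3 and at 7.06 in the clone, where line 3 and the clone had the same deposited value. Its difference was 0.07 ± 0.09 (SE; limma, BH-adjusted p = 0.928), with a 95% interval of -0.16 to 0.30. The level was close to the median of all probe sets, and its other 2 probe sets were under that median, so Id2 was measured less surely than the other members. In both of those line 3 was the lowest array, and the order of the others changed.

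Id3 ran the other way from Id1. It stood at 8.39, 8.51 and 7.96 in lines 1, 2 and 3, against 8.55 in the clone. The clone was the highest array, but line 2 was within 0.04 of it, and the difference of -0.26 ± 0.21 (SE; limma, BH-adjusted p = 0.890) was -0.09 without line 3. Id1 and Id3, like Smad6 and Bmp4, were each measured by 1 probe set, so none of these patterns has a second probe set to set beside it.

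**Figure D2:**
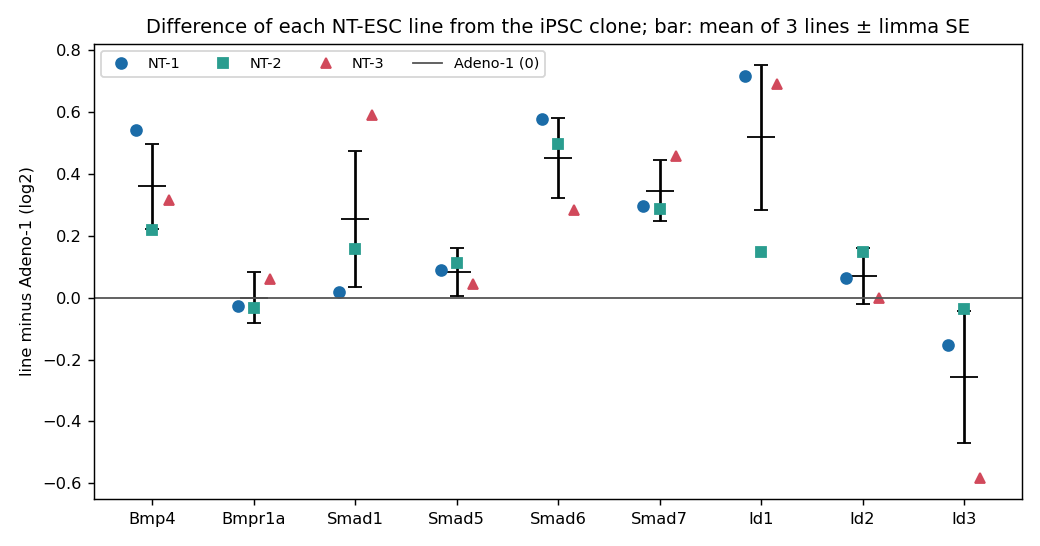
Level of each NT-ESC line minus that of the iPSC clone for the 9 genes (log2; coloured points, 1 array each), with the mean of the 3 lines and its limma SE in black. Smad6 and Smad7 lie above 0 in every line, at 0.28 to 0.58 and 0.29 to 0.46, Id1 is split between line 2 at 0.15 and the other lines at 0.69 and 0.72, and Id3 is at -0.58 in line 3.

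Each line was also set against the clone by itself, without a test since each comparison has 1 array a side. Genes were counted when at least 1.5-fold apart with the brighter array at or above the median level, which held for 0.467% of genes in line 1 (56), 0.142% in line 2 (17) and 1.76% in line 3 (212). Id1 was past that fold in lines 1 and 3, Smad1 in line 3 at 0.59, and no member in line 2. Id3 in line 3, at -0.58, lay just short of it. With an assumed mean of 6 the Smad1 value became 0.51 and was no longer past 1.5-fold, while Id1 was still past it in lines 1 and 3, at 0.62 and 0.59. With the mean of 7.86, Smad6 and Bmp4 in line 1 and Id3 in line 3 were past it as well.

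**Figure D3:**
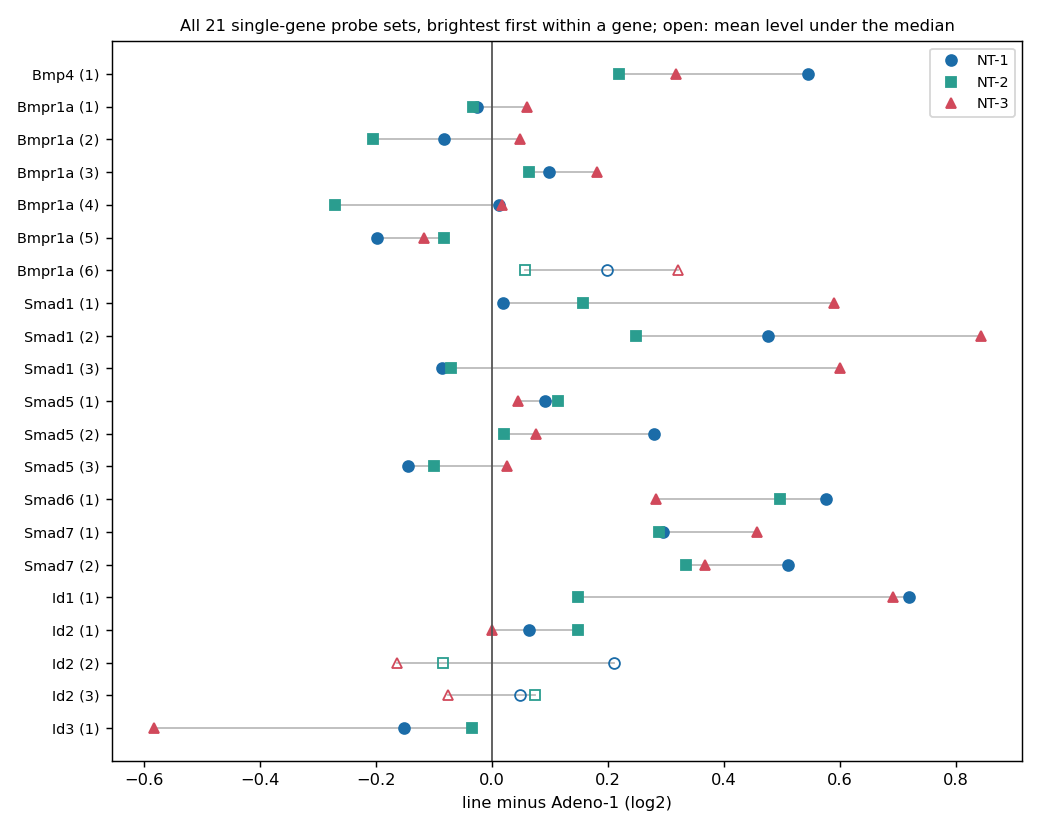
Level of each NT-ESC line minus that of the clone for all 21 probe sets (log2; 1 point per line, probe sets of a gene from brightest to dimmest, open symbols for a mean level under the median). Both Smad7 probe sets lie right of 0 in all lines, line 3 is the highest line for all 3 Smad1 probe sets, and the 6 Bmpr1a probe sets scatter around 0.

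Line 3 differed most from the other arrays over the whole genome, and of the members Smad1 and Id3 differed most there. When line 3 was compared with the other 3 arrays by limma, 0.462% of genes were called (84 of 18193), and no member was; with the clone, line 1 or line 2 left out, 0 genes were called by limma. At an unadjusted p under 0.05 limma gave 2 members, Smad1 and Id3, against 11.6% of all genes. Line 3 was the highest array for 3 members, Smad1, Smad7 and Bmpr1a (26.7% of bright genes), and the lowest for Id3 (31.1%). Smad1 stood at 9.17 in line 3 and at 8.63 ± 0.09 (SD, n = 3, the clone and lines 1 and 2) on the others, a difference of 0.53 ± 0.09 (SE; limma, BH-adjusted p = 0.0825). Id3 stood at 7.96 in line 3 and at 8.48 ± 0.08 (SD, n = 3) on the others, a difference of -0.52 ± 0.09 (SE; limma, BH-adjusted p = 0.0825). When each gene was taken as the mean of its probe sets, both passed, with BH-adjusted limma p-values of 0.0317 for Smad1 at 0.60 and 0.0482 for Id3 at -0.52; Id3 has 1 probe set, so its value was the same and only the fit around it changed. Over the other settings that keep all 4 arrays the BH-adjusted limma p ran from 0.0608 to 0.261 for Smad1 and from 0.0637 to 0.242 for Id3, and with 1 of the other arrays left out from 0.348 to 0.597 for either gene.

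The 3 Smad1 probe sets all placed line 3 highest. The second stood at 8.87 in line 3, with 8.51 and 8.28 in lines 1 and 2 and 8.03 in the clone. The third stood at 8.46 in line 3, with 7.77 and 7.79 in lines 1 and 2 and 7.86 in the clone. In the second, line 1 was 0.48 above the clone, while in the brightest and the third it was within 0.09 of it, so the probe sets disagree on line 1 and not on line 3.

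Smad1 is the only member on chromosome 8, a chromosome whose bright genes as a body were higher in line 3 (median difference 0.27 over 636 genes, beside -0.02 over 11111 bright genes of other chromosomes). On that chromosome 7.39% of bright genes differed as much as Smad1 or more (47 genes), and on the others 0.414% did (46). Smad1 thus lay toward the upper end of the genes of its chromosome, whose 95th percentile was 0.56. The part of the chromosome-wide shift in the Smad1 value was not tested. Id3, on chromosome 4, had a difference that 0.936% of bright genes matched or went below (110 of 11747).

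**Figure D4:**
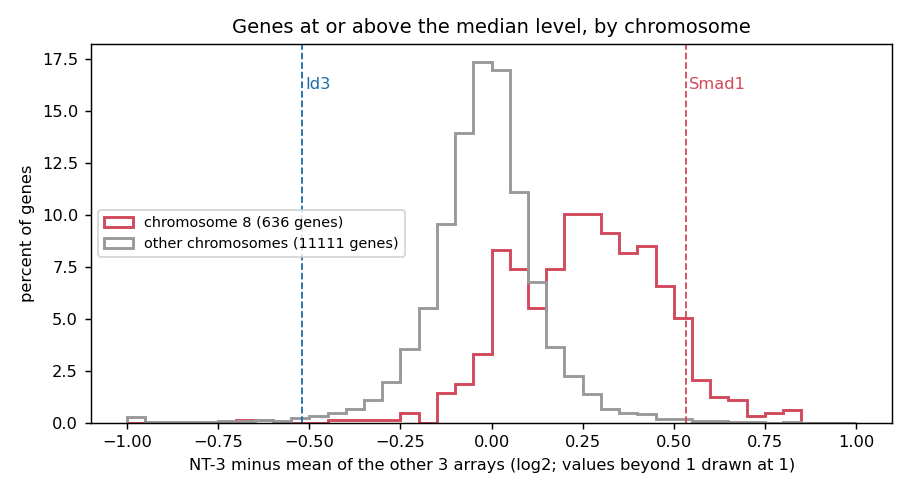
Distribution of the difference between line 3 and the mean of the other 3 arrays (log2) over bright genes, for 636 genes of chromosome 8 in red and 11111 genes of other chromosomes in grey, as a percent of each set. Dashed lines mark Smad1 at 0.53, in the upper tail of chromosome 8, and Id3 at -0.52, in the lower tail of the other chromosomes.

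No member was called in line 3, as stated above, and the remaining members had higher BH-adjusted limma p-values than Smad1 and Id3. Bmp4 differed by 0.06 ± 0.19 (SE), Smad6 by -0.07 ± 0.21, Smad7 by 0.26 ± 0.13, Id1 by 0.40 ± 0.25, Bmpr1a by 0.08 ± 0.08, Id2 by -0.07 ± 0.09 and Smad5 by -0.02 ± 0.09 (limma, BH-adjusted p from 0.530 to 0.968). With 1 of the other arrays left out, Id1 ran from 0.26 without the clone to 0.62 without line 1, and Smad7 was 0.17 without the clone. In lines 1 and 2 no gene was called (0% each) when the line was set against the other 3 arrays by limma, with 2.77% and 2.33% of genes at an unadjusted p under 0.05 (504 and 423). Among the members Bmp4 was at that unadjusted level in line 1, where it was 0.36 above the mean of the others (limma, unadjusted p = 0.0375).

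A wider list of 56 pathway genes, of which 53 were measured and 36 were bright, was measured beside the members. The median of its differences, lines minus clone, was 0.0026, beside -0.0031 over all genes. In all 3 lines 15 genes were higher and 12 lower (24.7% and 26.7% of all genes). Among its 36 bright genes, 13 were higher and 5 lower (29.9% and 21.4% of all bright genes). Their median was 0.0307, beside 0.0157 over all bright genes. None was called by limma in any comparison. At an unadjusted limma p under 0.05 there were 2 for the lines against the clone, Kdm6b and Tcf12 (5.53% of all genes), 6 for line 3 against the other arrays, Gdf3, Bmpr2, Bmp2, Dlx3, Bmper and Tcf3 (11.6%), and 1 for line 1, Nbl1 (2.77%). Line 3 was the highest array for 18 of the 53 and the lowest for 19, beside 4679 and 5231 of all 18193 genes. Among the 36 bright genes it was highest for 14 and lowest for 14 (26.7% and 31.1% of all bright genes). Of the 10 other ligands, 3 were bright: Gdf3, a ligand made by pluripotent cells, stood at 9.99, 10.05 and 9.64 in lines 1 to 3 and at 10.07 in the clone, and differed by -0.40 in line 3 from the mean of the others (limma, BH-adjusted p = 0.104), while Bmp7 differed by 0.05 and Bmp10 by -0.04. The other 7 ligands were under the median level, and 6 of them were lower in the lines on average. With Gdf3, 7 of the 10 ligands were lower in every line and 2 were higher, beside 26.7% and 24.7% of all genes. Since 21.4% of bright genes were lower in every line, genes under the median level were more often so.

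Among receptors and coreceptors, 6 of 9 were bright. Bmpr2, the type II partner of Bmpr1a, stood at 9.02, 9.11 and 9.46 in lines 1, 2 and 3 and at 8.93 in the clone, so line 3 was highest as it was for Smad1, and it was 0.44 above the mean of the others there (limma, BH-adjusted p = 0.109). The type II receptor Acvr2a differed by 0.11, the coreceptor Eng by 0.10 and the type I receptor Acvr1 by -0.06. Of the Smad transducers, the common partner Smad4 differed by 0.05, and Smad2 and Smad3, which carry the activin and TGF-beta signal, by -0.09 and 0.09.

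Among 11 extracellular antagonists, Nbl1 differed by -0.25 and the modulator Twsg1 by 0.15; Chrd (chordin) differed by 0.08 and Fst (follistatin) by -0.03. Noggin (Nog) was under the median level, at 5.75 to 6.09 in the lines and 5.92 in the clone. Of 7 intracellular or membrane inhibitors, Tob1, which can bind Smads and damp BMP signalling, had the largest difference, with 9.58, 9.42 and 9.28 in lines 1, 2 and 3 and 9.15 in the clone (0.28 ± 0.13 SE; limma, BH-adjusted p = 0.856). The ubiquitin ligase Smurf2 differed by 0.12 and its relative Smurf1 by 0.08, and the decoy receptor Bambi by -0.07. Of the 7, Tob1 and Smurf2 were higher in every line and Bambi was lower in every line, by only 0.006 in line 1.

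Among 9 further targets, the histone demethylase Kdm6b stood at 8.95, 8.93 and 9.07 in lines 1 to 3 and at 8.71 in the clone (0.27 ± 0.09 SE; limma, unadjusted p = 0.0263, BH-adjusted p = 0.856). Hey1 differed by 0.15, Dusp9, a phosphatase that BMP induces in mouse embryonic stem cells to lower ERK activity, by 0.07, and Gata2 by -0.06. Id4, the fourth Id gene, stood at 7.87, 7.84 and 7.67 in the lines and at 7.82 in the clone, and was lowest in line 3, as Id3 was. The E proteins are the partners that Id proteins bind. Tcf12 stood at 8.76, 8.71 and 8.92 in the lines and at 8.52 in the clone (limma, unadjusted p = 0.0431), Tcf4 differed by 0.07 and Tcf3 by 0.04, with Tcf3 lowest in line 3.

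**Figure D5:**
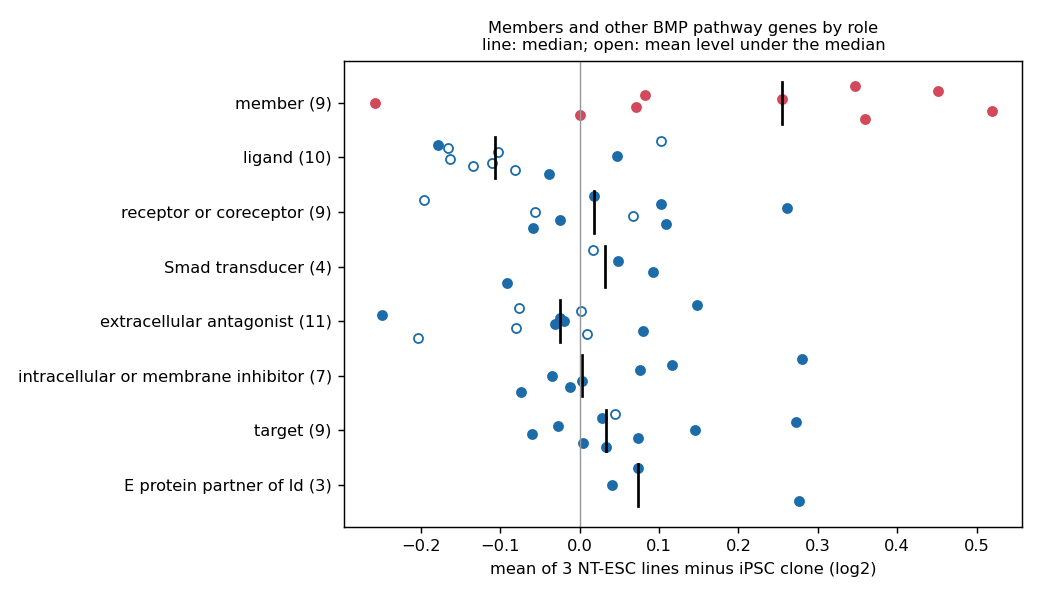
Mean of the 3 NT-ESC lines minus the iPSC clone (log2) for the 9 members, in red, and 53 other pathway genes by role, in blue, with the median of each row as a black line and open symbols for genes under the median level. The median is 0.25 for the members, which were chosen with results known, and lies between -0.11 and 0.07 for the other rows.

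The genes whose levels over the 4 arrays were most like those of Id1 and Id3 were found by the root-mean-square distance between levels centred on their own mean, over bright genes. For Id1 the nearest were Inhbb, an activin subunit, at 0.099, Dnajc6 at 0.101, Zbed6 at 0.105, Sfn at 0.128 and Fbxo2 at 0.130, so that 1 gene of 11747 lay within 0.1. Inhbb stood at 9.57, 9.13 and 9.39 in lines 1, 2 and 3 and at 8.84 in the clone. For Id3 the nearest were Nefl at 0.026, Mkrn3 at 0.033, Twf2 at 0.035, Cldn6 at 0.035 and Ints6 at 0.038, and 114 genes lay within 0.1. The Id3 pattern, low in line 3, thus had more close matches over these 4 arrays than the split pattern of Id1.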

How the data were processed

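Per the labels, biotin-labelled RNA of 4 lines was hybridized to Affymetrix arrays; the sources used here do not give the normalization software. The authors' deposited log2 values ran from -1.244 to 1.025, and on each array the mean of 2 to the power of the value was 1, so they have the form of the log2 of a log intensity over the array mean. Each was turned into a level by multiplying that ratio by an assumed mean of 7. Deposited values have 3 decimals, a step of 0.005 at level 7. Of 45037 probe sets that are not controls, 34945 had 1 gene, 932 several and 9160 none; symbols and chromosomes were updated through RefSeq (GRCm38.p6, 34741 probe sets matched).

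Differences were tested with limma 3.58.1 in R 4.3.3 (lmFit, eBayes; two-sided; called at a Benjamini-Hochberg adjusted p below 0.05), with 2 residual and 3.57 prior degrees of freedom for lines against clone and 5.05 prior for line 3 against the other arrays. For the latter, the clone and the other lines were taken as 1 group. On simulated data with independent noise, the fit was checked only for the size of known differences. Intervals are 95%. The members and gene lists were chosen with earlier results of these data known, and line 3 is known from them to stand apart. Named pathway genes are up to 4 bright genes a role by size of the difference; likeness names the 5 nearest genes for Id1 and Id3, and genes outside these rules were chosen after their values were seen. Of the pathway list, 3 genes were not analysed here. Alternatives are given at the end. The number of arrays limits the precision.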

Additional observations from a re-analysis of the deposited data

How the results depend on the processing

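No paired analysis was possible because there was 1 clone array, from the donor of all the lines. For lines against clone, 0 genes were called by limma under every alternative run, with 1006 at an unadjusted p under 0.05. For line 3 against the other arrays, 84 genes became 15 with the deposited values as they stand, 133 after quantile normalization, 168 with the mean of probe sets, 47 with every probe set and 153 with an intensity trend; leaving out any 1 other array gave 0, with 1 residual degree of freedom. Leaving out 1 line gave differences from the clone of 0.42 to 0.70 for Id1, 0.39 to 0.54 for Smad6, 0.29 to 0.38 for Smad7, 0.27 to 0.43 for Bmp4, 0.09 to 0.37 for Smad1 and -0.37 to -0.09 for Id3. The sign of Bmpr1a turned to -0.0364 after quantile normalization and ran from -0.0303 to 0.017 without 1 line. In line 3, signs turned for Smad6 (-0.253 to 0.0348 without 1 array), Bmp4 (-0.0641 to 0.208) and Smad5 (0.02 with the mean of probe sets). The median of other pathway genes was 0.0026, and -0.0021 with the mean of probe sets, 0.0307 without dim genes and -0.0022 to 0.0126 without 1 line. By alternatives chosen after seeing the data, the count of 6 members above the clone was 6 with quantile normalization (with Id2, without Smad1). The share of bright genes above the clone was then 23.3%, beside 29.9% before. The count was 6 without line 1, 6 without line 2 and 7 without line 3, where 36.4%, 35.7% and 43.2% of bright genes were so. Also by such alternatives, counts of genes 1.5-fold apart from the clone in lines 1, 2 and 3 were 27, 7 and 131 with a mean of 6, 100, 43 and 319 with 7.86, and 110, 58 and 419 with every probe set. The cause of these changes was not tested.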
